A study of Mus musculus with 4 samples.

Results

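The transcripts of MHC class II antigen presentation, together with Cd83 and the B7 ligand Cd86, were followed in splenic CD4+CD25+ cells, the surface phenotype by which mouse regulatory T cells (Tregs) are sorted. The genes were chosen by name from a list of 9, namely Cd74, H2-Aa, H2-Eb1, H2-DMa, H2-Oa, Ciita, Cd83, Cd80 and Cd86. Of these, 8 were among the 16383 genes of the table, and Cd80 was not analysed here. All 8 passed the filter on low values, as did 11571 genes in all. The list was drawn up with the values of these libraries in view, so the knockout against wild-type (WT) contrast of its members is given as a description, without a test. Spleens came from mice aged 7 weeks, of WT or Ikzf2-/- genotype. Ikzf2 encodes the zinc finger transcription factor Helios, and the Ikzf2-/- samples are labelled Helios KO. Each genotype had 2 libraries of polyA RNA from sorted cells. The labels give neither the strain, nor the sex, nor which exons the null allele lacks, nor whether a library pools several mice.

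MHC class II molecules are pairs of an alpha and a beta chain that display peptides from endosomes to CD4+ T cells. The invariant chain, encoded by Cd74, guides the pairs to endosomes, where H2-DM exchanges its remnant for peptide and H2-O restrains H2-DM. The coactivator CIITA, encoded by Ciita, switches these genes on in B cells, dendritic cells and macrophages, and mouse T cells are known for making little class II. CD83 protects surface class II and CD86 from the ubiquitin ligase MARCH1, and CD80 and CD86 are the ligands of CD28 and of CTLA-4, an inhibitory receptor abundant on Tregs.

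Classical class II promoters carry an X box, bound by the RFX complex, and a Y box, bound by NF-Y, to which CIITA is recruited. RefSeq promoter sequences (GRCm38.p6, the same assembly as mm10) were found for 5 of the 9 listed genes and for 7 class II genes looked up by name. The stretch from 120 to 31 bases before the start site is shown for the 4 of these 7 in which both motifs were found. Their transcripts behaved differently across the libraries. Each runs 5′ to 3′ on the gene's strand, with the letters GCAAC of the X region and TGATTGG of the Y box in capitals.
H2-Aa, chr17:34287854-34287943, minus strand: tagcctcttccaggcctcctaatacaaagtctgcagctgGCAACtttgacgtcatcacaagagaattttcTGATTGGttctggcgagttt
H2-Eb1, chr17:34305747-34305836, plus strand: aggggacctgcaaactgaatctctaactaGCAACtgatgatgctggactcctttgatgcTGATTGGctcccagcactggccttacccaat
H2-Oa, chr17:34092259-34092348, plus strand: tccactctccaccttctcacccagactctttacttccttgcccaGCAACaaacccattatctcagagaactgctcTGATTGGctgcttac
H2-Ob, chr17:34238785-34238874, plus strand: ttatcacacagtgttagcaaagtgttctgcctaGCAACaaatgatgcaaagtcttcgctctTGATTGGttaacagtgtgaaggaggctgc

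The motifs were chosen after the sequences had been read. They do not overlap each other, and both strands of the 250 bases before the start were searched. GCAAC followed by TGATTGG on the same strand, with at most 60 bases between their first letters, was present in 129 of 32851 promoters (0.393%). TGATTGG alone was present in 7.23% and GCAAC alone in 29.9%. The distance between the first letters was 31 bases in H2-Aa, 30 in H2-Eb1, 31 in H2-Oa and 28 in H2-Ob. H2-DMb2 and H2-DMb1 had TGATTGG without GCAAC, and TGATTGG was not among the letters of either H2-DMa window. A match describes letters and is not evidence of binding.

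The libraries were first checked as sorted T cells. Recovered reads numbered 42157138 to 52543073 per library. Ikzf2 had values of 5282 and 7864 in WT, against 4396 in Helios KO replicate 1 and 3104 in replicate 2. Each knockout library was thus under each WT library, as for 15.7% of all genes tested. The knockout libraries lay at 0.669 and 0.472 times the WT mean, and the WT libraries differed 1.49-fold. Ikzf2 was not called changed in the limma fit given below. The summed level of 7 T cell markers was 341896 to 364715 in WT and 337415 to 379880 in the knockout, and that of 6 Treg markers including Foxp3 was 162885 to 170776 and 138980 to 189823. Helios KO replicate 2 stood apart. Its summed macrophage markers reached 105812, against 1464 to 4507 in the other 3 libraries, and its summed dendritic cell markers reached 5048, against 306 to 365. Summed neutrophil markers there were 36749 against 34.8 to 136, and summed erythroid markers 8516 against 32.7 to 66.5. The Treg markers differed in that library. Foxp3 lay at 0.710, Il2ra at 0.677 and Ikzf4 at 0.765 times the WT mean. Ctla4, Tnfrsf18 and Tnfrsf4 lay at 0.902 to 1.01 times. The members' values are therefore given for each library singly, and their log2 fold changes with and without that library. In such bulk samples, fewer cells of a type and less RNA per cell cannot be told apart.

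In WT cells the 8 measured genes of the list spanned a wide range. Levels are given as the number of normalised reads for each kb of the median annotated transcript. That length was 0.81 kb for Cd86 and 3.86 kb for Ciita. It may differ from the length of the transcripts made in these cells, so the order of the genes is approximate. Cd83 was the most abundant of the 8, at 8936 ± 522 (SD, n = 2), above 90.4% of the genes tested. Cd74 followed at 7407 ± 135, above 88.1%. Cd86 at 3011 ± 257 and H2-DMa at 2812 ± 244 came next, and their libraries overlapped. H2-Aa was at 1473 ± 345 and H2-Eb1 at 1002 ± 171, near the middle of the genes tested (55.3% and 47.3% lay below them), with no overlap between the genes. H2-Oa was at 419 ± 81.7. Ciita, the coactivator, was the lowest of the 8 at 39.6 ± 6.05, above 12.1% of the genes tested.

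**Figure D1:**
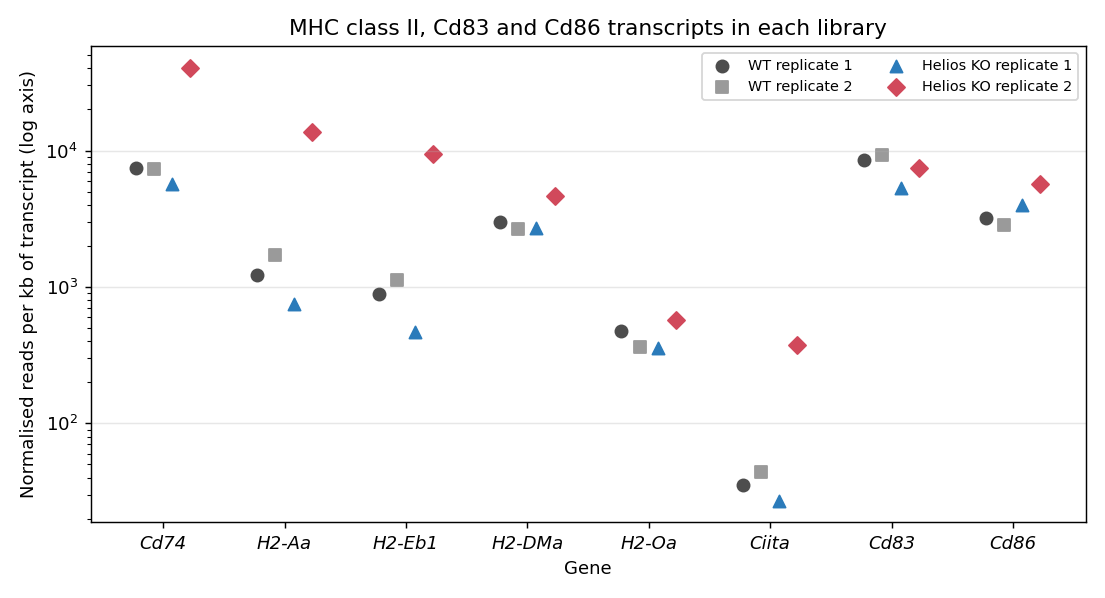
Normalised reads per kb of transcript (log axis) of the 8 measured genes, 1 point per library. Helios KO replicate 2 lies highest for every gene but Cd83, for example at 40560 for Cd74, while Helios KO replicate 1 lies below both WT libraries for 6 genes, and Cd83 is lower and Cd86 higher in both knockout libraries than in both WT libraries.

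Among the peptide-presenting chains, H2-Aa and H2-Eb1 had the same pattern. H2-Aa, the alpha chain of the A molecule (ENSMUSG00000036594, chromosome 17, 34282744 to 34287823), had values of 1229 and 1717 in WT, 746 in Helios KO replicate 1 and 13776 in Helios KO replicate 2. The knockout libraries thus lay on opposite sides of WT, at 0.507 and 9.35 times its mean. H2-Eb1, the beta chain of the E molecule (ENSMUSG00000060586, chromosome 17, 34305867 to 34316674), had 881 and 1123 in WT, 466 in Helios KO replicate 1 and 9468 in replicate 2. Its ratios to the WT mean were 0.465 and 9.45. The antisense gene Gm20513 overlaps H2-Eb1 over 2204 bases, and reads from that stretch cannot be assigned to either without strand. The log2 fold change over both knockout libraries was 1.14 (SE 1.77) for H2-Aa and 1.08 (SE 1.82) for H2-Eb1, smaller than its error in each case. Without Helios KO replicate 2 it was -0.96 and -1.09.

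The ratio of H2-Aa to H2-Eb1 varied far less than their levels. It was 1.39 and 1.53 in WT, 1.60 in Helios KO replicate 1 and 1.45 in replicate 2. The highest ratio was 1.15 times the lowest, although the knockout libraries differed 18.5-fold in H2-Aa. H2-Ea, which encodes the alpha chain that pairs with H2-Eb1, was named after its values were seen. It held 1 and 0 reads in WT, 0 in Helios KO replicate 1 and 2 in replicate 2, a library in which H2-Eb1 held 10351 reads. In mice of the H-2b haplotype this gene is known to be silent, and the labels do not give the haplotype.

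Cd74, like H2-Aa, was lowest in Helios KO replicate 1 and highest in replicate 2, over a narrower range. Cd74 (ENSMUSG00000024610, chromosome 18, 60803848 to 60812652) had values of 7503 and 7312 in WT, 5701 in Helios KO replicate 1 and 40560 in replicate 2. The WT libraries were close, with a smaller log2 gap than 87.2% of the genes tested, and the knockout libraries lay at 0.770 and 5.48 times the WT mean. The log2 fold change was 1.04 (SE 1.18), or -0.38 without Helios KO replicate 2. The ratio of Cd74 to H2-Aa was 6.11 and 4.26 in WT, 7.64 in Helios KO replicate 1 and 2.94 in replicate 2. This ratio was highest where H2-Aa, its denominator, was lowest and lowest where H2-Aa was highest, which restates the narrower range of Cd74.

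**Figure D2:**
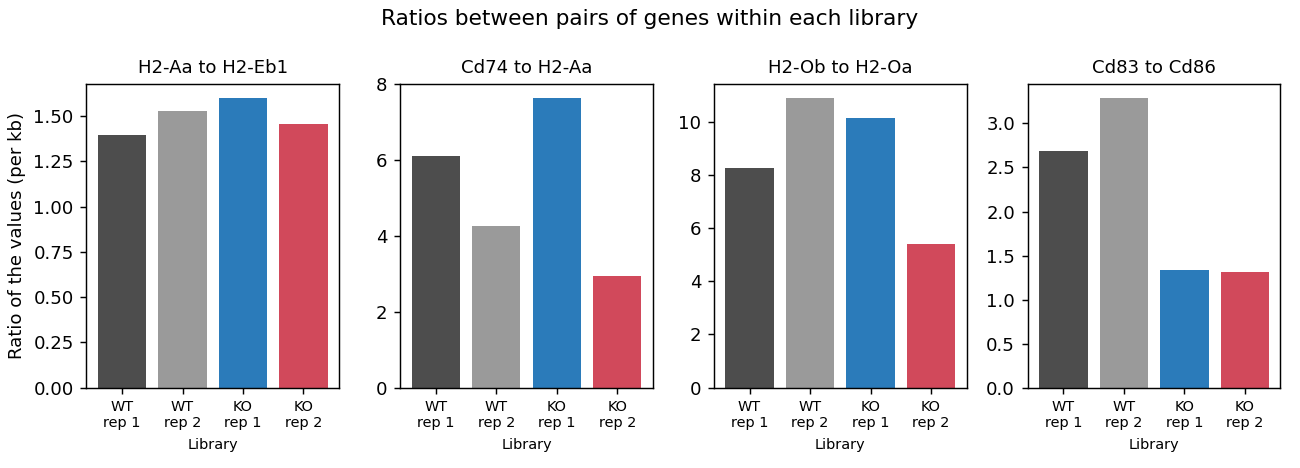
Ratio of the values of 2 genes within each library, as bars from 0, 1 bar per library. H2-Aa to H2-Eb1 stays between 1.39 and 1.60, Cd74 to H2-Aa ranges from 2.94 to 7.64, H2-Ob to H2-Oa is lowest at 5.39 in Helios KO replicate 2, and Cd83 to Cd86 is 1.33 and 1.32 in the knockout libraries against 2.68 and 3.29 in WT.

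The peptide-loading genes varied less, with H2-DMb2 as an exception. H2-DMa, the alpha chain of the peptide exchange factor (ENSMUSG00000037649, chromosome 17, 34119541 to 34139101), had 2984 and 2639 in WT, 2682 in Helios KO replicate 1 and 4613 in replicate 2. Helios KO replicate 1 lay within the WT range, and replicate 2 at 1.64 times the WT mean. The log2 fold change was 0.33 (SE 0.30), or -0.065 without Helios KO replicate 2. Its partner beta chain H2-DMb2 had 110 and 115 in WT, 80.9 in Helios KO replicate 1 and 620 in replicate 2. The ratio of H2-DMa to H2-DMb2 was therefore 27.1 and 22.9 in WT and 33.2 in Helios KO replicate 1, but 7.44 in replicate 2. H2-DMb1, the other beta chain gene, was not analysed here. The 2 beta chain genes are near copies, and how reads common to both were counted is not given in the sources used here, so the H2-DMb2 value is uncertain. The H2-DMa value is uncertain too, because its annotated gene overlaps Brd2 on the opposite strand over 3094 bases and the preparation does not mark strand.

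The subunits of H2-O differed in level and in pattern. H2-Oa, the alpha chain (ENSMUSG00000024334, chromosome 17, 34092340 to 34095234), had 477 and 361 in WT, 356 in Helios KO replicate 1 and 568 in replicate 2. Helios KO replicate 1 lay just under the lower WT library, and replicate 2 at 1.36 times the WT mean. H2-Oa had a log2 fold change of 0.12 (SE 0.28), or -0.22 without Helios KO replicate 2. H2-Ob, the beta chain (chromosome 17, 34238903 to 34254414), had 3942 and 3934 in WT, 3611 in Helios KO replicate 1 and 3062 in replicate 2. The beta chain was lowest in the library where H2-Oa, H2-Aa and H2-Eb1 were highest. The ratio of H2-Ob to H2-Oa lay between 8.27 and 10.9 in the other 3 libraries and was 5.39 in Helios KO replicate 2. The annotated antisense gene BC051537 overlaps H2-Oa, and their reads cannot be told apart without strand. Both promoters hold the GCAAC and TGATTGG letters printed above.

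Ciita followed the classical chains at a far lower level. Ciita (ENSMUSG00000022504, chromosome 16, 10480059 to 10528418) had 35.3 and 43.9 in WT, 27.1 in Helios KO replicate 1 and 378 in replicate 2, from 145, 181, 91 and 1475 reads. Ciita overlaps Dexi on the opposite strand, and Dexi had 635 to 811 over the 4 libraries, and where the genes overlap their reads cannot be told apart. The exact Poisson 95% intervals, which cover counting error only, were 29.8 to 41.5 and 37.7 to 50.7 in WT, 21.8 to 33.3 in Helios KO replicate 1 and 359 to 398 in replicate 2. The intervals of Helios KO replicate 1 and WT replicate 1 overlapped, which is not a test of their difference. Helios KO replicate 2 lay at 9.55 times the WT mean. Ciita had a log2 fold change of 1.36 (SE 1.48), or -0.52 without Helios KO replicate 2. The ratio of H2-Aa to Ciita was 34.8 and 39.2 in WT, against 27.5 in Helios KO replicate 1 and 36.4 in replicate 2.

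The class II genes share a stretch of chromosome 17 with genes of class I presentation. From H2-Oa to H2-Eb1 (34092340 to 34316674, mm10) the table holds 10 genes, all of them tested. In Helios KO replicate 2, H2-Oa, H2-DMa, H2-DMb2, H2-Aa and H2-Eb1 lay at 1.36 to 9.45 times the WT mean. The genes between them, Brd2, a chromatin reader, Tap1 and Tap2, the peptide transporter of class I loading, and Psmb8, an immunoproteasome subunit, lay at 0.954 to 1.03 times. H2-Ob, beside them, lay at 0.778 times. In Helios KO replicate 1, H2-Aa and H2-Eb1 at the end of the stretch were lowest relative to WT, and Tap1, Psmb8 and Tap2 lay at 1.15 to 1.18 times.

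**Figure D3:**
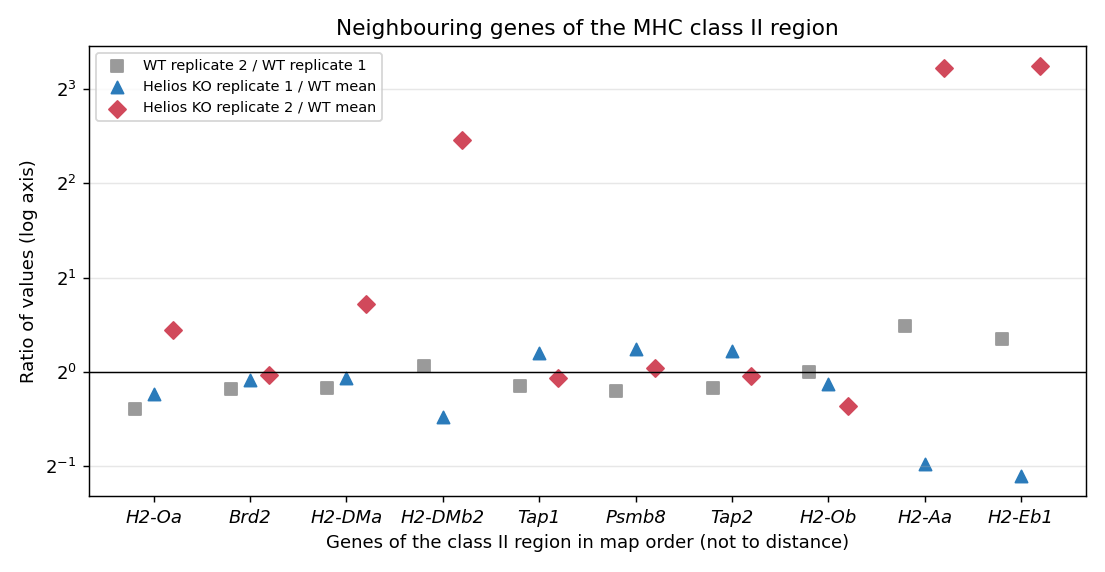
Ratio of values (log axis) for the 10 genes between H2-Oa and H2-Eb1 on chromosome 17, in map order. Points give WT replicate 2 over WT replicate 1 and each knockout library over the WT mean; in Helios KO replicate 2 the genes H2-DMb2, H2-Aa and H2-Eb1 stand at 5.50 to 9.45 times while Tap1, Psmb8 and Tap2 between them stay near 1.

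Cd83 and Cd86 were the genes of the list whose knockout libraries did not overlap with WT. Of all genes tested, 15.7% lay lower and 12.5% higher in both knockout libraries than in both WT libraries, and nothing is read from the members' count against these shares. Cd83 (ENSMUSG00000015396, chromosome 13, 43784775 to 43803132) had 8566 and 9305 in WT, 5329 in Helios KO replicate 1 and 7500 in replicate 2. Both knockout libraries were below WT, at 0.596 and 0.839 times its mean. The log2 fold change was -0.50 (SE 0.18). Without Helios KO replicate 2 it was -0.74, and without Helios KO replicate 1 it was -0.25.

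Cd86 lay on the other side. Cd86 (ENSMUSG00000022901, chromosome 16, 36603869 to 36666081) had 3193 and 2830 in WT, 3996 in Helios KO replicate 1 and 5693 in replicate 2. Both knockout libraries were above WT, at 1.33 and 1.89 times its mean. The log2 fold change was 0.67 (SE 0.19). Without Helios KO replicate 2 it was 0.41, and without Helios KO replicate 1 it was 0.92. The ratio of Cd83 to Cd86 was 2.68 and 3.29 in WT, against 1.33 in Helios KO replicate 1 and 1.32 in replicate 2. The pair was chosen after its values were seen, because the genes lay on opposite sides of WT, so this ratio is a description.

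Markers of antigen-presenting cells were mostly highest in Helios KO replicate 2, and their order over the other 3 libraries differed between cell types. Of 11 macrophage markers, 11 were highest in Helios KO replicate 2, as were 8 of 8 tested dendritic cell markers, 10 of 12 B cell markers and 7 of the 8 members, where 32.0% of all genes tested were highest there. The members at or above 5 times the WT mean in that library were Cd74, H2-Aa, H2-Eb1 and Ciita, where 3.96% of genes tested were. In Helios KO replicate 1, 10 of 11 macrophage markers, 6 of 12 B cell markers and 3 of 8 dendritic cell markers were the lowest of the 4 libraries, as were 6 of the 8 members, where 25.9% of all genes tested were lowest there. The members' values chose them, and nothing is read from these shares.

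The summed macrophage level was 2663 and 4507 in WT, 1464 in Helios KO replicate 1 and 105812 in replicate 2. H2-Aa, H2-Eb1 and Ciita had this order of the libraries, and Cd74, H2-DMa and H2-Oa did not, being higher in WT replicate 1 than in WT replicate 2. The summed B cell level was 2985 and 2360 in WT, 1543 in Helios KO replicate 1 and 4482 in replicate 2, an order shared by Cd74 and H2-Oa but not by H2-DMa. The summed dendritic cell level was 306 and 365 in WT, 321 in Helios KO replicate 1 and 5048 in replicate 2, an order that none of the 8 members had. No macrophage or B cell marker was at 0 in any library, and the dendritic cell marker Clec9a was at 0 in WT replicate 1 and Helios KO replicate 1. In Helios KO replicate 1 the summed macrophage, B cell and dendritic cell markers lay at 0.408, 0.577 and 0.958 times the WT mean. In Helios KO replicate 2 they lay at 29.5, 1.68 and 15.1 times. The part of these cells in the class II, Cd83 and Cd86 values was not tested.

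**Figure D4:**
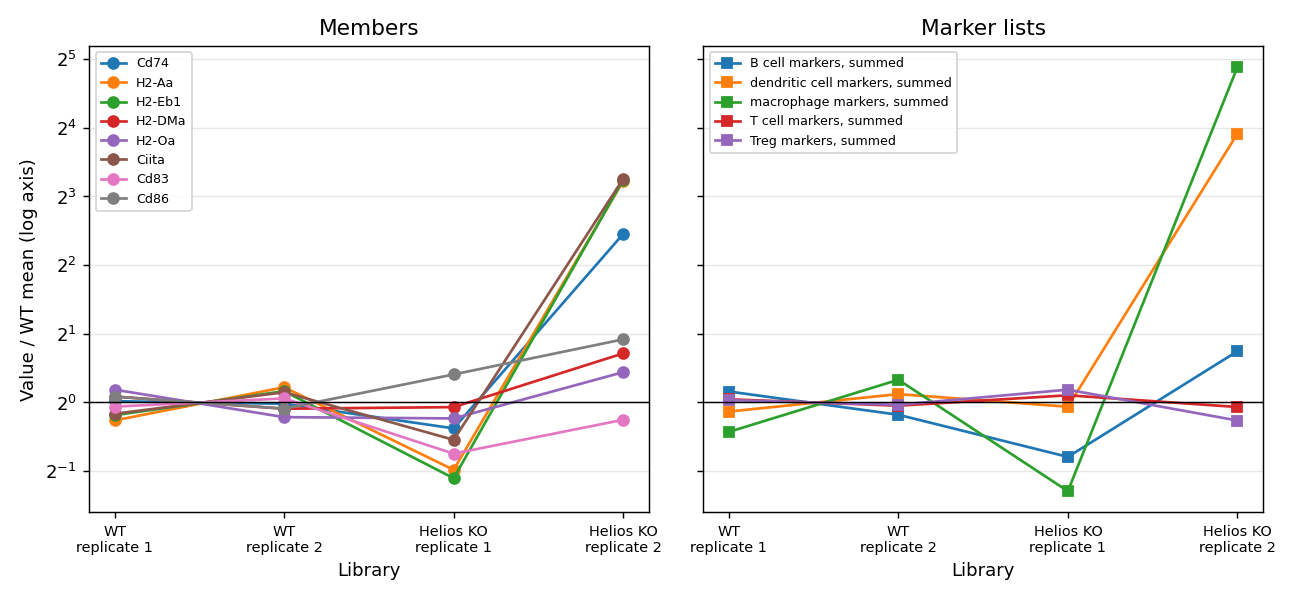
Value divided by the WT mean (log axis) in each of the 4 libraries, for the 8 measured genes (left) and the summed level of each marker list (right); lines only join points of one gene or list. In Helios KO replicate 2 the summed macrophage markers reach 29.5 times, the summed B cell markers 1.68 times and Ciita 9.55 times the WT mean. The summed T cell and Treg markers lie at 0.955 and 0.833 times, with Foxp3 alone at 0.710 times.

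The rest of the pathway was tested in the fit over all genes. limma called 0 of 11571 genes changed between the genotypes (0.0%) at an adjusted p under 0.05, and 386 (3.34%) had an unadjusted p under 0.05, as did 385 (3.33%) in limma-voom, which also called 0. Of 45 pathway genes in the table that are no members, 42 were tested and 0 were called in limma or limma-voom, with 0 at an unadjusted p under 0.05 in either. Without Helios KO replicate 1, limma called 10 of them higher and 0 lower, where 6.07% of genes tested were called higher. These were H2-DMb2, Ctsb, Ctsd, Ctsl, Lgmn, Ifi30, Marchf8, Cd40, Irf8 and Spi1. Without Helios KO replicate 2 limma called 0 of them, where 0.353% of genes tested were called. In each of these fits the lone knockout library is assumed to vary like the WT libraries. Of the 8 members, 0 were called in limma with all libraries or without Helios KO replicate 2, and 6 were called higher without Helios KO replicate 1, a count from which nothing is read since these values chose them.

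Among 16 tested genes of class II loading and transcription, 3 had both knockout libraries above WT and 4 had both below, where 12.5% and 15.7% of all genes tested did. Their median log2 fold change was 0.16, against -0.0014 over all genes tested. For Helios KO replicate 1 alone against WT the median was -0.014, and for replicate 2 alone it was 0.29, so the positive median rests on replicate 2. Lgmn and H2-Ob had the smallest p. Lgmn, the endosomal protease legumain, had 641 and 745 in WT, 1083 in Helios KO replicate 1 and 2579 in replicate 2. Its log2 fold change was 1.27 (SE 0.50, limma adjusted p = 1.00), or 0.65 without Helios KO replicate 2. H2-Ob had -0.24 (SE 0.11, limma adjusted p = 1.00), or -0.13 without that library, from the values given above.

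The proteases and the factors of the X and Y boxes differed in Helios KO replicate 2. Ctss, the cathepsin that trims the invariant chain, had 12335 and 12507 in WT, 13001 in Helios KO replicate 1 and 17432 in replicate 2. Ctsl, Ctsb, Ctsd and Ifi30, a thiol reductase of endosomes, lay at 1.74 to 2.48 times the WT mean in that last library. The RFX subunit genes Rfx5, Rfxank and Rfxap and the NF-Y subunit genes Nfya, Nfyb and Nfyc lay at 0.890 to 1.06 times there and at 0.849 to 1.03 times in Helios KO replicate 1. Marchf1, whose product removes class II and CD86 from the surface, did not pass the filter, with 7.39 and 4.12 in WT, 9.05 in Helios KO replicate 1 and 215 in replicate 2. H2-Eb2, another beta chain gene, did not pass it either, with 2.72 to 28.6 over the libraries, and H2-Ab1 was not analysed here.

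Of 7 tested receptors and ligands of costimulation, 2 had both knockout libraries above WT and 0 had both below (12.5% and 15.7% of all genes tested), and the median log2 fold change was 0.12. Cd28 had 9787 and 10280 in WT, against 12784 in Helios KO replicate 1 and 10772 in replicate 2. Its log2 fold change was 0.23 (SE 0.12, limma adjusted p = 1.00). Cd40, a receptor of antigen-presenting cells, had 76.0 and 85.5 in WT, against 75.9 in Helios KO replicate 1 and 353 in replicate 2. Its log2 fold change was 1.01 (SE 0.81, limma adjusted p = 1.00). Ctla4 had 28316 and 28016 in WT, against 37145 in Helios KO replicate 1 and 25410 in replicate 2. The ratio of Cd86 to Ctla4 was 0.113 and 0.101 in WT, 0.108 in Helios KO replicate 1 and 0.224 in replicate 2.

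Of 10 tested genes of signals known to induce class II, 3 had both knockout libraries above WT and 1 had both below (12.5% and 15.7% of all genes tested), and the median log2 fold change was 0.11. Irf1, a transcription factor that acts on the Ciita promoter, had a log2 fold change of 0.21 (SE 0.11, limma adjusted p = 1.00). Spi1, which encodes the myeloid and B cell factor PU.1, had 122 and 121 in WT, 111 in Helios KO replicate 1 and 3466 in replicate 2. Helios KO replicate 2 was thus 28.5 times the WT mean, and Helios KO replicate 1 was at 0.917 times.

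Class I presentation served as a comparison within the same libraries. Of 9 tested genes, 1 had both knockout libraries above WT and 0 had both below (12.5% and 15.7% of all genes tested), and the median log2 fold change was 0.10. The smallest p were those of Calr, a chaperone of the endoplasmic reticulum, with 0.17 (SE 0.12, limma adjusted p = 1.00), and of Psmb8, with 0.14 (SE 0.12, limma adjusted p = 1.00). H2-K1, a class I heavy chain, had 411008 and 358532 in WT, against 416668 in Helios KO replicate 1 and 341800 in replicate 2. The class I genes summed to 0.971 times the WT mean in Helios KO replicate 2. H2-K1, at 0.888 times, was the largest term of that sum. The median log2 difference of the 9 genes from WT in that library was 0.040.

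The genes most like Cd74 and Cd83 were ranked by the Euclidean distance between mean-centred log2 profiles over the 4 libraries, without a test. Nearest to Cd74 were Blvrb, a biliverdin reductase, at 0.087, Dok3, an adaptor of B cells and myeloid cells, at 0.087, H2-DMb2 at 0.11, Il18, a cytokine gene, at 0.13, and Rhob, a small GTPase gene, at 0.16. Nearest to Cd83 were Slc25a43, a mitochondrial carrier gene, at 0.043, Wwp1, a ubiquitin ligase gene, at 0.048, Lgalsl, a galectin-related gene, at 0.048, Catsperg1 at 0.079 and Zc2hc1c at 0.091. These genes lay far below Cd83, between 19.5 and 496 over the libraries.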

How the data were processed

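RNA-seq libraries, 2 per genotype, were grouped by the sample titles. Per the file headers, the deposited values are a signal per gene, namely counts normalised by the authors and then divided by the median length of transcripts in kb. The submitters' processing notes name bcl2fastq 2.17.1.14 and the mm10 build; an aligner, a counter and a normalisation method are not given in the sources. Per the labels' protocols cDNA was amplified by a method that does not mark strand.

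Gene positions and median transcript lengths came from GENCODE M21 (GRCm38). Multiplying by length and dividing by what 1 read is worth in each library, 0.936 to 1.15 on that scale, gave reads, of which 97.2% of 58026 nonzero values were whole within 0.01 read.

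Values were tested as log2(value + 1) with limma 3.58.1 (R 4.3.3), with genotype as the only term and trended, robust variances. Genes that reached 10 in 2 or more libraries were kept. Tests were two-sided with Benjamini-Hochberg adjustment over all genes tested. Fold changes on this scale understate those of low genes. The fit was also run on simulated data, which held no outlying library like Helios KO replicate 2 and so do not cover that case. Labels do not name separate mice, so p-values reflect sample-to-sample spread that may be technical.

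The members, the pathway and marker lists and the tests were chosen with earlier results of these data known. Named genes were the members, the called genes of each pathway list or the 2 with the smallest p, Ikzf2, and the 5 genes nearest to Cd74 and to Cd83. One gene that this rule names is not reported here. Brd2, H2-Ea and others given for context were named after their values were seen. Alternatives were a median ratio rescaling, limma-voom on recovered reads, no filter, a pseudocount of 0.1, the replicate number as a block, and leaving out each library.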

Additional observations from a re-analysis of the deposited data

How the results depend on the processing

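With all libraries kept, the 8 members' log2 fold changes kept their sign under each of 5 alternatives, and 0 genes and 0 pathway genes were called under any of them. Leaving out each library in turn gave 0 to 758 called genes and 0 to 10 called pathway genes. The 758 (694 higher, 64 lower) came without Helios KO replicate 1, and 40 (8 higher, 32 lower) without Helios KO replicate 2, while leaving out either WT library gave 0. Without Helios KO replicate 2 the log2 fold changes of Cd74 (-0.38), H2-Aa (-0.96), H2-Eb1 (-1.09), H2-DMa (-0.065), H2-Oa (-0.22) and Ciita (-0.52) had the opposite sign, and H2-Oa also without WT replicate 2 (-0.082). Cd83 stayed between -0.74 and -0.25 and Cd86 between 0.41 and 0.92. With the replicate number as a block, 0 genes and 0 pathway genes were called, with 335 and 3 at an unadjusted p under 0.05. The correlation of the deviations of same-numbered libraries was 0.106, and the labels do not tie the numbers to shared mice or days. With 2 libraries a genotype, and 1 of them holding transcripts of other blood cells, the error of the log2 fold change exceeds its size for Cd74, H2-Aa, H2-Eb1, H2-Oa and Ciita. Counting error limits H2-Ea in every library, and Marchf1 and, less so, Ciita outside Helios KO replicate 2. The gap in Ciita between the knockout libraries exceeds its counting intervals.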
